A study of Mus musculus with 6 samples.

Results

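The matrix metalloproteases, the ADAMTS proteases and their tissue inhibitors were examined in basal cells sorted from the prostate of 6-day-old male FVB/N mice. Every probe of the array design whose gene symbol begins with Mmp, Adamts or Timp followed by a digit was taken, which gave 62 probes for 46 genes out of 55681 probes and 36163 gene names on the array. They fell into 17 secreted Mmp genes, 6 membrane-type Mmp genes, 7 Adamts genes whose enzymes cleave hyalectans, 3 procollagen Adamts genes, 9 other Adamts genes and 4 Timp genes. All mice carried the Tg 11.5kb-GFP transgene, in which the s-SHIP promoter drives GFP, and received no treatment. Cells without the lineage markers Ter119, CD31 and CD45 and with Sca-1 and CD49f on their surface (LSC cells) were sorted into LSC GFP+ and LSC GFP- cells, 3 samples each. Both populations therefore shared the genotype, the tissue, the age and the gate and differed in GFP. The transgene is not confined to the prostate epithelium, since vascular smooth muscle cells carry strong GFP in these mice. The paper found little or no Sca-1 and CD49f on those muscle cells, and CD24 on all cells of the LSC gate. The samples are described as independent, but the number of mice behind each was not stated, so the p values cover the spread between these samples only.

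Matrix metalloproteases are zinc endopeptidases that are made as inactive zymogens and cut collagens, proteoglycans, other proteases and cell surface proteins. Most are secreted and the membrane-type enzymes stay at the cell surface. The ADAMTS enzymes are secreted relatives with thrombospondin motifs, among them the enzymes that cut versican and aggrecan (hyalectans) and those that trim procollagens. The TIMPs bind to the active site of these proteases and block it. Prostate ducts grow out and branch into the surrounding mesenchyme in the first weeks after birth, and the matrix around the buds is remodelled as they do.

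Each probe is a stretch of 60 bases of the transcript, and several results below differ between the probes of a gene. The first 30 bases of the probes on which these results turn are shown here in lower case, in the sense of the transcript, with nothing capitalised because no base within them is singled out. Their places are those of the array design on mm9. The Adamts18 probe lies at chr8:116222720-116222779 on the minus strand, the Adamts9 probe at chr6:92723051-92723110 on the minus strand and the Adamts15 probe at chr9:30707033-30707092 on the minus strand. The upstream and downstream probes of Adamts8 begin at bases 902 and 3572 of the transcript, at chr9:30751050-30751109 and chr9:30770384-30770443 on the plus strand. Those of Adamts2 begin at bases 1528 and 3661, at chr11:50590188-50590247 and chr11:50617472-50617531 on the plus strand. Those of Mmp11 begin at bases 1947 and 2132, at chr10:75386209-75386268 and chr10:75386024-75386083 on the minus strand.
Adamts18: ccatagggtttaaagaatggacagatagcc
Adamts9: tcagcatactcagagaacgacaggagatcg
Adamts15: gagtatcttcattgggttatggaccagtaa
Adamts8 upstream: cagaagactcccgcaaagtgccaccaccct
Adamts8 downstream: acccatttcaagtatttatgcaaatatgtc
Adamts2 upstream: gggcttcactattccatgaacgagcagtgt
Adamts2 downstream: caaagaatccaggagctcattaatgcagtg
Mmp11 upstream: tggagagatagtgaactgatcatattctgg
Mmp11 downstream: gcacaggtaccctctaagccatgtacatgt

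Not every gene of these families gave a signal in LSC cells. The scanner software marked 34 of the 62 probes as well above background on all 6 arrays, 8 on 1 to 5 arrays and 20 on none. By gene, 29 of the 46 had a probe above background on all 6 arrays, 3 on some arrays only and 14 on none. All 4 Timp genes were among the 29. The 14 genes whose probes were not well above background on any array were Mmp1a, Mmp1b, Mmp3, Mmp9, Mmp10, Mmp13, Mmp16, Mmp19, Mmp20, Mmp21, Mmp25, Adamts3, Adamts7 and Adamts20. They include the interstitial collagenases (Mmp1a, Mmp1b, Mmp13), the stromelysins Mmp3 and Mmp10 and gelatinase B (Mmp9). Mmp9 was printed on 10 spots per array, and 1 of its 60 spots over the 6 arrays was well above background. Mmp8 and Mmp12, the collagenase and elastase of neutrophils and macrophages, were above background on LSC GFP- replicate 2 alone, and Adamts6 on 4 arrays.

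**Figure D1:**
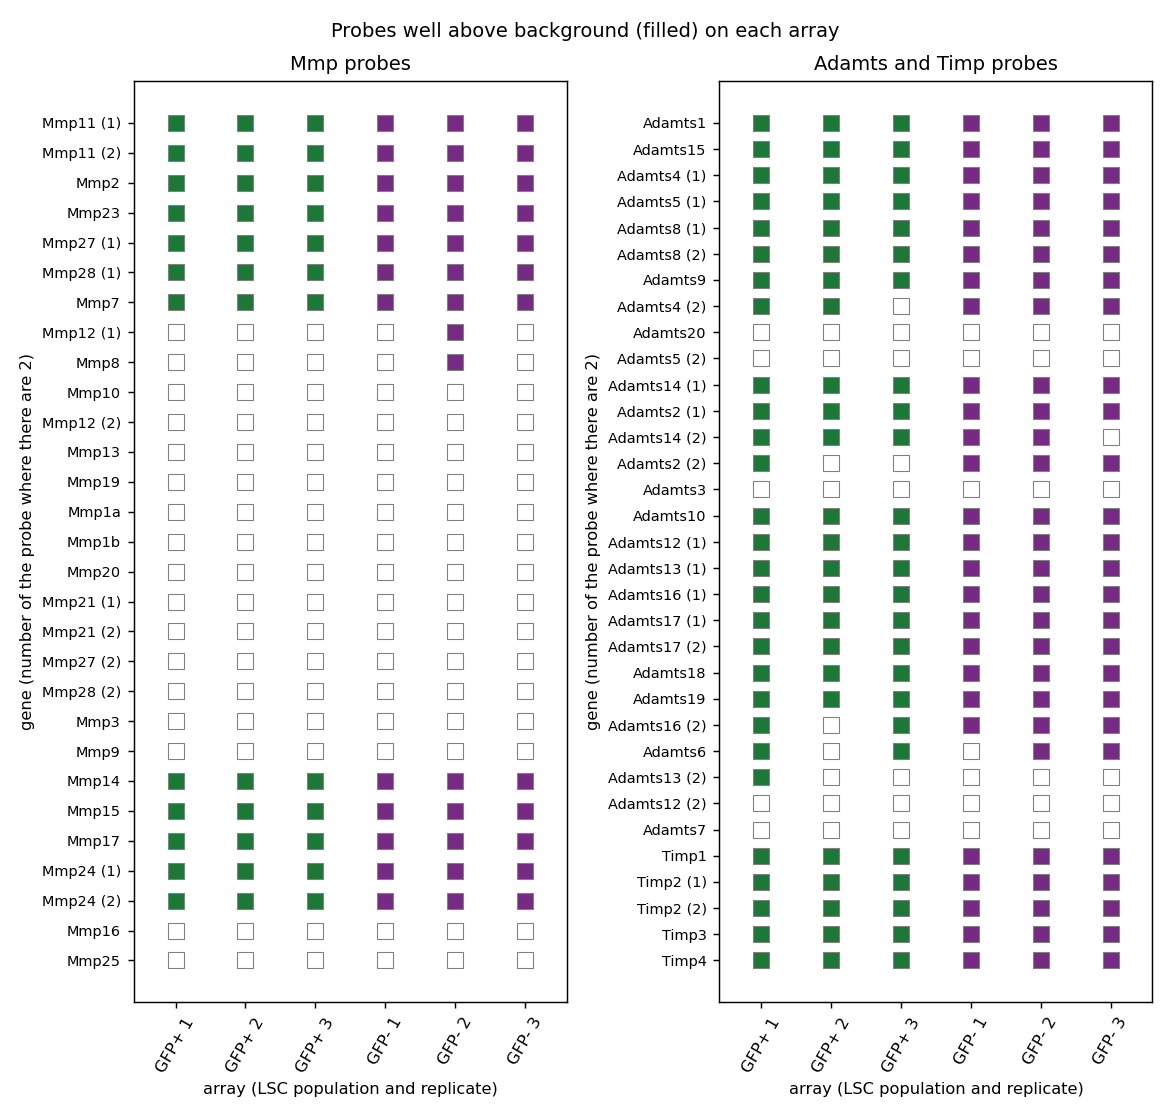
Each row is a probe of an Mmp, Adamts or Timp gene and each column an array, 3 of LSC GFP+ and 3 of LSC GFP- cells. A filled square stands for a probe well above background on that array. The filled rows of the left panel are those of 6 secreted and 4 membrane-type Mmp genes, while 15 Adamts genes and all 4 Timp genes fill rows on the right.

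Several of the probes without signal lay in 1 stretch of the genome. On chromosome 9, 10 Mmp genes lie next to each other, and the probes of that cluster spanned chr9:7282762-7697700 on mm9. The cluster had 12 probes, of which 2 were tested, those of Mmp7 at its end and 1 of the 2 probes of Mmp27. Mmp7, known as matrilysin and made by many glandular epithelia, read 0.92, 0.93 and 2.12 in LSC GFP+ replicates 1, 2 and 3 and 0.60, 0.39 and 1.26 in LSC GFP- replicates 1, 2 and 3. These and all later levels are log2 signals minus the 75th percentile of the array, a scale on which a level is comparable between arrays for a given probe but not between probes. The populations overlapped, and the third replicate was the highest of each. The difference was 0.57 (SE 0.38, n = 3 per population), with an adjusted p of 0.88 in limma. With the replicate numbers as a block, the difference of Mmp7 had an unadjusted p of 0.0167 in limma, and an adjusted p of 0.222.

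Probes entered the test if the software found them well above background on each array of either population, and 38 probes of 29 genes qualified. A gene was called when its brightest tested probe had an unadjusted p under 0.05 in limma. On that rule 3 genes were higher in LSC GFP+ cells (Adamts9, Adamts17 and Adamts18) and 3 were lower (Adamts4, Adamts15 and Adamts16), together 20.7% of the 29, where 7.67% of all 25545 tested genes were called, 3.39% as higher and 4.29% as lower. By probe, 10 of 38 were called, 3 higher and 7 lower, against 7.9% of all tested probes, 3.38% higher and 4.53% lower. The downstream Adamts2 probe and the brightest Adamts4 probe qualified through LSC GFP- cells alone, where they were the higher. Of the 34 member probes above background on all 6 arrays, 8 were called, 3 higher and 5 lower, against 7.4% of such probes. No call of a member survived the Benjamini-Hochberg adjustment over all tested probes in limma, the lowest adjusted p being 0.124, and on the whole array 1 probe, or 0.0027%, did. The populations did not overlap at the brightest probe of 7 genes, against 11.9% of all tested genes. The median log2 difference over the 29 genes was 0.066, with 18 genes higher in LSC GFP+ cells, and the median over all tested genes was -0.0068.

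The called genes were all Adamts genes. Of the 15 tested Adamts genes 6 were called, of the 10 tested Mmp genes none, and of the 4 Timp genes none. By the methods' t-test, 1 Mmp gene (Mmp27) and 0 Timp genes had an unadjusted p under 0.05. With the replicate numbers as a block, 9 genes were called, 5 higher and 4 lower, since Mmp7, Mmp11 and Mmp14 joined the 6 Adamts genes, while the share of all probes called rose to 14.8%. Whether the families differ in how often they were called was not tested.

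**Figure D2:**
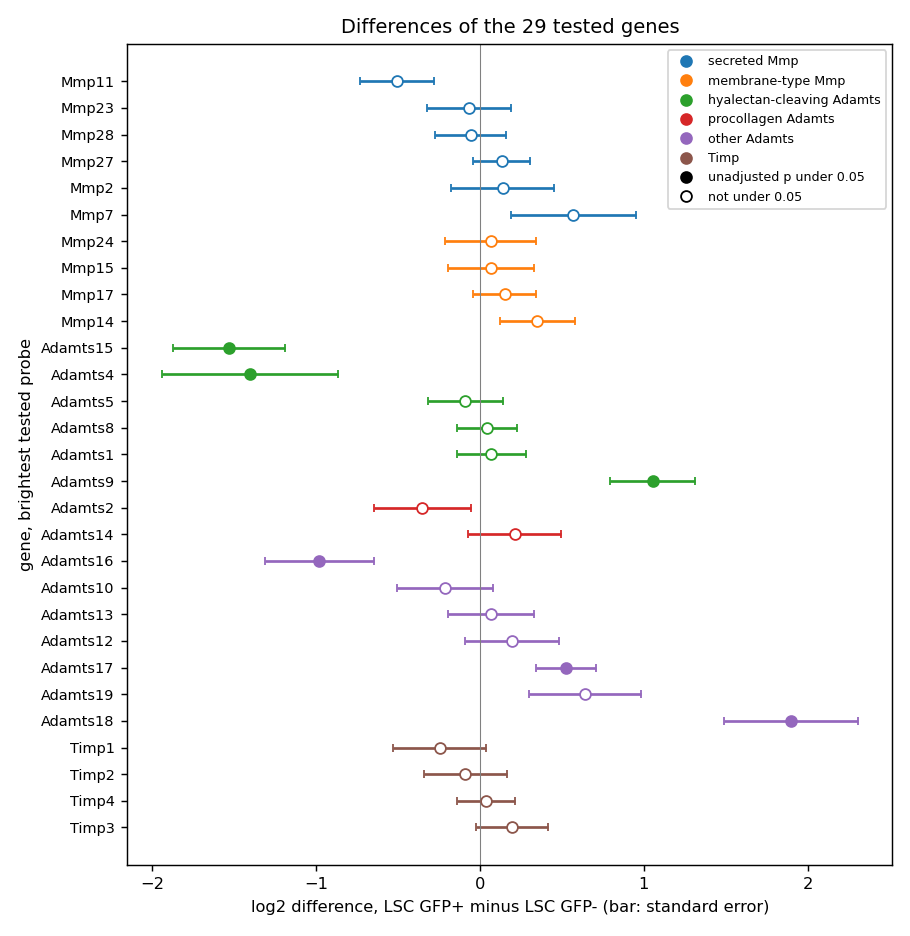
The log2 difference (LSC GFP+ minus LSC GFP-) is shown for the brightest tested probe of each of the 29 genes, with its standard error as a bar and 3 arrays per population. Filled circles are genes with an unadjusted p under 0.05 in limma. All 6 filled circles belong to Adamts genes, from -1.53 for Adamts15 to 1.90 for Adamts18, and the Timp genes lie between -0.25 and 0.20.

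Adamts18 had the largest difference of the 29 genes. Its enzyme is needed for the normal branching of epithelial organs in the mouse. Its levels were 0.59, -0.13 and -0.92 in LSC GFP+ replicates 1, 2 and 3 and -1.66, -1.90 and -2.59 in LSC GFP- replicates 1, 2 and 3. Every LSC GFP+ sample lay above every LSC GFP- sample, and in both populations replicate 1 was the highest and replicate 3 the lowest. The difference was 1.90 (SE 0.41), a 3.73-fold higher signal, with an adjusted p of 0.174 in limma. With the replicate numbers as a block its SE was 0.17 and its adjusted p 0.0598. After normexp background correction the difference of Adamts18 was 1.28, and that of Adamts15 was -1.29.

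Adamts9, whose enzyme cleaves versican, was the second of the genes that were higher. It read 2.98, 3.19 and 2.41 in LSC GFP+ replicates 1, 2 and 3 and 2.04, 1.81 and 1.57 in LSC GFP- replicates 1, 2 and 3. The groups did not overlap, and the signal was 2.08-fold higher (log2 difference 1.05, SE 0.26, adjusted p 0.231 in limma). Adamts17, which is linked to fibrillin microfibrils, read 0.79, 0.69 and 0.50 in LSC GFP+ cells and 0.13, 0.16 and 0.11 in LSC GFP- cells at its brightest probe. Its difference was 0.53 (SE 0.18, adjusted p 0.469 in limma), without overlap between the groups and with the LSC GFP- samples close together. The other tested probe of Adamts17 differed by 0.21 (SE 0.22), which did not pass.

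Adamts15 was the gene with the largest decrease at its brightest probe. Its enzyme is a hyalectan-cleaving protease. The levels were -0.97, 0.18 and 0.18 in LSC GFP+ replicates 1, 2 and 3 and 1.07, 1.58 and 1.33 in LSC GFP- replicates 1, 2 and 3. The groups did not overlap, with LSC GFP+ replicate 1 well below the other 2 samples of its population. The signal was 2.89-fold lower (log2 difference -1.53, SE 0.34, adjusted p 0.184 in limma).

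Adamts8 lies beside Adamts15 on chromosome 9 and gave a different answer with each of its probes. At the downstream probe, LSC GFP+ replicates 1, 2 and 3 read -2.68, -2.70 and -2.59 and LSC GFP- replicates 1, 2 and 3 read -0.38, -1.39 and -1.32. The groups were far apart, the LSC GFP+ samples close together and LSC GFP- replicate 1 the highest. This was the lowest adjusted p of all members, 0.124 in limma, for a log2 difference of -1.63 (SE 0.29) or a 3.09-fold lower signal. After normexp background correction the difference was -0.96. At the upstream probe, which was the brighter, the levels were -1.62, -1.84 and -1.75 in LSC GFP+ cells and -1.88, -1.78 and -1.69 in LSC GFP- cells. There the populations overlapped and the difference was 0.04 (SE 0.18). Both probes were above background on all 6 arrays, and which of them reflects the transcripts of Adamts8 in these cells was not tested.

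Adamts4, an aggrecanase, was lower at both of its tested probes. At the brightest, LSC GFP+ replicates 1, 2 and 3 read -2.83, -3.86 and -4.49 and LSC GFP- replicates 1, 2 and 3 read -1.33, -3.12 and -2.53. The groups overlapped, because LSC GFP+ replicate 1 lay above LSC GFP- replicate 2. The difference was -1.40 (SE 0.54, adjusted p 0.540 in limma), and the probe was above background on 2 of the 3 LSC GFP+ arrays, so that it was tested only through LSC GFP- cells. At the other probe the levels were -3.22, -3.71 and -4.21 in LSC GFP+ cells and -2.30, -3.17 and -3.04 in LSC GFP- cells, a difference of -0.88 (SE 0.33, adjusted p 0.512 in limma). After normexp background correction the differences were -0.55, which was no longer called, and -0.37.

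Adamts1 and Adamts5 were tested as well and not called, and Adamts20 was not tested. Adamts1, which is widely expressed and was measured by 1 probe, differed by 0.07 (SE 0.21), and Adamts5, the second aggrecanase, by -0.09 (SE 0.23). These genes are neighbours on chromosome 16. Of the hyalectan-cleaving class as a whole, 6 of 7 genes were tested, 1 was called as higher and 2 as lower, and the median difference was -0.02.

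Of the procollagen Adamts genes, Adamts2 and Adamts14 were tested and Adamts3 was not. Adamts2 encodes the main procollagen N-propeptidase. Its downstream probe read -3.88, -4.68 and -5.70 in LSC GFP+ replicates 1, 2 and 3 and -2.90, -3.41 and -3.35 in LSC GFP- replicates 1, 2 and 3. All LSC GFP- samples were above all LSC GFP+ samples, of which replicate 1 alone was above background. The probe was tested only because it was above background in LSC GFP- cells, and with 2 of the 3 LSC GFP+ values not above background its measured difference of -1.54 (SE 0.43, adjusted p 0.309 in limma) is not an exact size. It was -0.44 after normexp background correction. The brighter, upstream probe read -3.71, -3.70 and -3.25 in LSC GFP+ cells and -2.60, -3.57 and -3.43 in LSC GFP- cells, with overlapping groups and a difference of -0.35 (SE 0.30). The 2 probes of Adamts14 differed by 0.21 (SE 0.28) and 1.11 (SE 0.59) and neither was called. LSC GFP+ replicate 2 stood at -1.31 on the second of them, above the other 5 samples, which lay between -4.39 and -3.32.

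Among the other Adamts genes, Adamts16 was lower. Its brightest probe read -3.70, -4.23 and -3.46 in LSC GFP+ replicates 1, 2 and 3 and -2.23, -2.85 and -3.36 in LSC GFP- replicates 1, 2 and 3. The groups were parted by a narrow gap, between the third replicates, and the difference was -0.98 (SE 0.33, adjusted p 0.444 in limma), or -0.48 after normexp background correction. Its other probe, with levels of -3.01, -4.61 and -3.16 against -3.33, -3.07 and -3.07, differed by -0.44 (SE 0.41) and was not called. Adamts10, Adamts12, Adamts13 and Adamts19 were tested and not called, with differences from -0.21 for Adamts10 to 0.64 (SE 0.34) for Adamts19. Adamts19 was printed on 10 spots, all well above background on every array, and the SD of the log2 signal between the spots of an array was 0.08 to 0.18, below the SD of 0.42 between the LSC GFP+ samples and of 0.58 between the LSC GFP- samples.

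**Figure D3:**
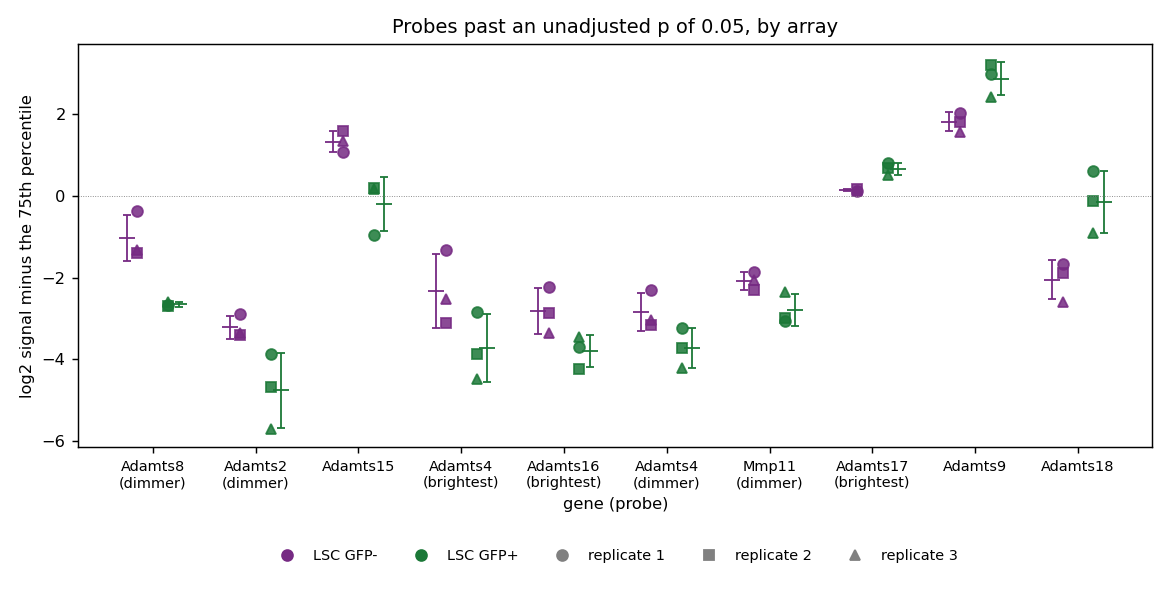
The log2 signal minus the 75th percentile of the array is plotted for each of the 10 called probes, with LSC GFP- samples in purple and LSC GFP+ samples in green. Marker shapes give the replicate, the horizontal ticks the mean and the bars the SD of 3 samples. The populations overlap at the brightest Adamts4 probe, and the 3 LSC GFP+ values of the dimmer Adamts8 probe lie between -2.70 and -2.59.

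Of the secreted Mmp genes, Mmp11 came closest to a call. Mmp11 (stromelysin-3) is known from stromal cells around growing epithelium. At its brightest, upstream probe it read -0.18, -0.47 and 0.21 in LSC GFP+ replicates 1, 2 and 3 and 0.39, 0.29 and 0.39 in LSC GFP- replicates 1, 2 and 3. The groups did not overlap, and the difference was -0.50 (SE 0.22, adjusted p 0.651 in limma). The downstream probe read -3.06, -2.99 and -2.35 in LSC GFP+ cells and -1.86, -2.30 and -2.07 in LSC GFP- cells. It was called at -0.72 (SE 0.25, adjusted p 0.469 in limma), and was -0.45 after normexp background correction, with LSC GFP+ replicate 3 just below the lowest LSC GFP- sample. With the replicate numbers as a block, the brightest probe had an unadjusted p of 0.0294 in limma, and an adjusted p of 0.276.

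The gelatinase Mmp2 and its activator Mmp14 were not called. Mmp2 read -0.33, -0.72 and -0.50 in LSC GFP+ replicates 1, 2 and 3 and -0.03, -1.24 and -0.70 in LSC GFP- replicates 1, 2 and 3. LSC GFP- samples spanned the whole LSC GFP+ range, and the difference was 0.14 (SE 0.31). Mmp14, the membrane-type enzyme that cuts the Mmp2 zymogen, read -0.41, -0.45 and -0.07 in LSC GFP+ cells and -0.77, -0.91 and -0.32 in LSC GFP- cells. Within each replicate number the LSC GFP+ sample was the higher, although the groups overlapped, and the difference was 0.35 (SE 0.23, adjusted p 0.874 in limma). With the replicate numbers as a block, the unadjusted p of Mmp14 was 0.0466 in limma, and the adjusted p 0.327. The other tested membrane-type genes, Mmp15, Mmp17 and Mmp24, differed by 0.07, 0.15 and 0.07 at their brightest probes, and Mmp23, Mmp27 and Mmp28 by -0.06, 0.13 and -0.06.

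None of the inhibitor genes was called. Timp2, which also takes part in the activation of Mmp2 by Mmp14, read 1.22, 1.34 and 1.82 in LSC GFP+ replicates 1, 2 and 3 and 1.52, 1.26 and 1.87 in LSC GFP- replicates 1, 2 and 3 at its brightest probe. Its other probe read 0.93, 1.46 and 1.89 against 1.64, 1.22 and 1.61. The groups overlapped at both, with differences of -0.09 (SE 0.25) and -0.07 (SE 0.28).

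Timp3, which stays bound to the matrix, read 0.94, 1.37 and 1.07 in LSC GFP+ replicates 1, 2 and 3 and 1.101, 0.65 and 1.03 in LSC GFP- replicates 1, 2 and 3, and its difference was 0.20 (SE 0.22). Timp4 read 0.43, 0.40 and 0.56 against 0.42, 0.41 and 0.45, a difference of 0.04 (SE 0.18). Timp1 read -2.11, -2.90 and -2.78 against -2.07, -2.28 and -2.71, a difference of -0.25 (SE 0.28). The populations overlapped for each of these 3 genes. The adjusted p was 0.996 in limma for each Timp probe, which does not show that the levels were equal.

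There were 9 genes with 2 tested probes, and the pairs differed in how well they matched. The 2 differences had the same sign in 7 of the 9 genes and lay within 0.5 of each other in 4 (Adamts17, Mmp11, Mmp24 and Timp2). The gap was widest for Adamts8, at 1.67, followed by Adamts2 at 1.19 and Adamts14 at 0.89. For Adamts2 and Adamts8 the downstream probe gave the lower value in LSC GFP+ cells, and taking the mean of the probes instead of the brightest gave -0.94 for Adamts2 and -0.79 for Adamts8, both then called as lower, as was Mmp11 at -0.61, while Adamts16 and Adamts17 were no longer called.

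**Figure D4:**
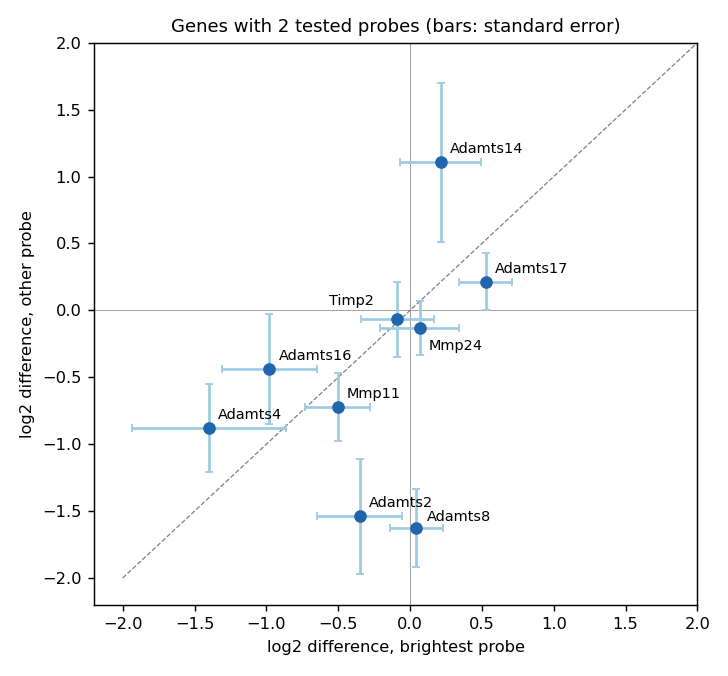
For each of the 9 genes with 2 tested probes, the log2 difference (LSC GFP+ minus LSC GFP-) of the brightest probe is set against that of the other probe, with standard errors as bars and the line of equal values dashed. Adamts8 and Adamts2 lie far below the line, with 0.04 and -0.35 at the brightest probe against -1.63 and -1.54 at the other.

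Markers of basal cells were measured in both populations, and markers of stroma and smooth muscle differed between them. All 6 basal markers were above background on all arrays, and 4 of them (Krt5, Krt14, Krt15 and Krt17) were called as higher in LSC GFP+ cells. Of the stromal list, 5 of 6 tested genes were called as lower in LSC GFP+ cells and 1, Dcn, as higher. All 6 smooth muscle genes were called as lower. Over all tested genes 7.67% were called, 3.39% as higher and 4.29% as lower. None of these markers passed the adjustment. The lowest adjusted p in limma was 0.102 for basal, 0.107 for stromal and 0.128 for smooth muscle genes. The linear signals of the tested stromal genes, relative to the 75th percentile, were summed. The sums ranged from 17.3 to 23.6 in LSC GFP+ samples and from 20.0 to 55.4 in LSC GFP- samples. Those of the smooth muscle genes ranged from 6.21 to 10.0 and from 19.6 to 37.7. Dcn was part of the stromal sum, at log2 levels of 3.37 to 3.97 in LSC GFP+ and 2.025 to 2.77 in LSC GFP- samples. Such sums add levels that are not comparable between probes, and the brightest probes weigh most. Col1a1, a defining stromal gene, differed by -2.18 (SE 0.37, adjusted p 0.107 in limma). Acta2, a defining smooth muscle gene, differed by -2.13 (SE 0.42, adjusted p 0.140 in limma). Of the genes of the lineage antigens CD45 and CD31, the tested Ptprc probe was above background on all 6 arrays, with a difference of -0.05. The Pecam1 probe was above background on 2 LSC GFP+ and 3 LSC GFP- arrays. A signal above background does not show that cells with these antigens were present, and where it came from was not tested. None of the 4 tested endothelial, 6 leukocyte or 4 neuronal and glial genes was called. LSC GFP- replicate 3 nevertheless had the highest level of Pecam1 (-1.07) and Cldn5 (-1.75). The same held for the untested Cdh5 (-2.24), Emcn (-3.18) and an untested Kdr probe (-2.51). Cdh5 lay between -6.51 and -6.025 on the other arrays. Tek and the tested Kdr probe were not highest in that sample. The source of this endothelial signal was not tested. In a bulk sample, fewer cells of a type and less RNA per cell cannot be told apart.

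LSC GFP- replicate 1 had the highest summed signal of both the stromal and the smooth muscle list. It was also the highest of its population at 6 of the 7 member probes called as lower. These were the probes of Adamts2, Adamts4, Adamts8, Adamts16 and Mmp11, but not of Adamts15. Among the probes called as higher, it was the highest of its population at those of Adamts9 and Adamts18, but not of Adamts17. Without that sample, 6 of 38 probes were called, 3 higher and 3 lower, against 6.14% of all tested probes. The 3 lower ones were the downstream Adamts8 probe at -1.30, the downstream Adamts2 probe at -1.38 and Adamts15 at -1.66. These probes were called on the same values. How often LSC GFP- replicate 1 was the highest over all probes called as lower was not counted. The part of stromal and smooth muscle RNA in the lower values was not tested.

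The other genes that act on these proteases were taken from lists of activators, inhibitors, related proteases and substrates, 46 genes in all. Of the 38 tested, 9 were called at an unadjusted p under 0.05, 7 higher and 2 lower in LSC GFP+ cells, and none after adjustment in limma. Over all tested genes 7.67% were called, 3.39% as higher and 4.29% as lower. In the plasminogen activator system, which activates several MMPs, the urokinase receptor Plaur was higher by 0.98 (SE 0.27), while urokinase itself, Plau, was lower by a log2 difference of -0.88 (SE 0.33). Among the convertases that cut zymogens, Pcsk6 was higher by 0.87 (SE 0.31, adjusted p 0.481 in limma). Its populations overlapped, with LSC GFP+ replicate 3 at -4.061 and LSC GFP- replicate 1 at -4.025. Pcsk6 was not well above background on any LSC GFP- array and was tested through LSC GFP+ cells alone, so its difference is not an exact size. Furin, Pcsk5 and Pcsk7 were not called.

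The hyalectan versican, a substrate of hyalectan-cleaving enzymes such as those of Adamts9 and Adamts15, was higher in LSC GFP+ cells. The other tested hyalectans, Acan at -0.06 (SE 0.27) and Ncan at -0.46 (SE 0.39), were not called, and Bcan was not tested. Vcan had a difference of 1.27 (SE 0.20) at its brightest probe, with the lowest adjusted p of these lists, 0.0993 in limma, while its other probes gave 1.32 (SE 0.22) and 0.44 (SE 0.45). The proteoglycan Spock1 differed by 1.63 (SE 0.31) at its brightest probe and by 0.39 (SE 0.41) at the other, which was not called. Papilin (Papln), which shares domains with the ADAMTS enzymes, differed by 1.44 (SE 0.31) and 1.25 (SE 0.26) at its probes. Of the related ADAM proteases, Adam28 was higher by 0.62 (SE 0.18) and Adam19 lower, at -0.89 (SE 0.36). The membrane serine proteases and their inhibitors (St14, Hpn, Spint1 and Spint2) and the astacin proteases Bmp1 and Tll1 were not called.

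Leaving out arrays or changing the processing did not affect all calls alike. Adamts9, Adamts15 and Adamts18 kept an unadjusted p under 0.05 in limma or the methods' t-test in 18 of 18 alternatives and the downstream Adamts8 probe in 17 of 17. The downstream Adamts2 probe kept it in the 16 alternatives that tested it, but was not tested when probes had to be above background on all 6 arrays. Adamts17 kept it in 12 of 18 and lost it when any array but LSC GFP+ replicate 3 was left out, at values from 0.46 to 0.54. Adamts16 kept it in 14 of 18 and fell short without LSC GFP- replicate 1, at -0.69, and without LSC GFP+ replicate 2, at -0.76. Adamts16 also fell short by the methods' t-test and as the mean of its probes. The Adamts4 probes kept it in 12 and 13 of 17. The brightest fell short with normexp background correction, and both fell short by the methods' t-test, without LSC GFP- replicate 1, at -0.90 and -0.62, without LSC GFP+ replicate 2, at -1.33 and -0.88, and without LSC GFP+ replicate 3, at -1.02 and -0.63. The downstream Mmp11 probe kept it in 11 of 17 and fell short without replicate 1 of either population, at -0.59 and -0.61, and without LSC GFP+ replicate 2, at -0.63. That probe also fell short with quantile normalization, with median scaling and by the methods' t-test. Without LSC GFP+ replicate 2, 3 of 29 genes and 5 of 38 probes were called, and 5.61% of all tested probes.

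**Figure D5:**
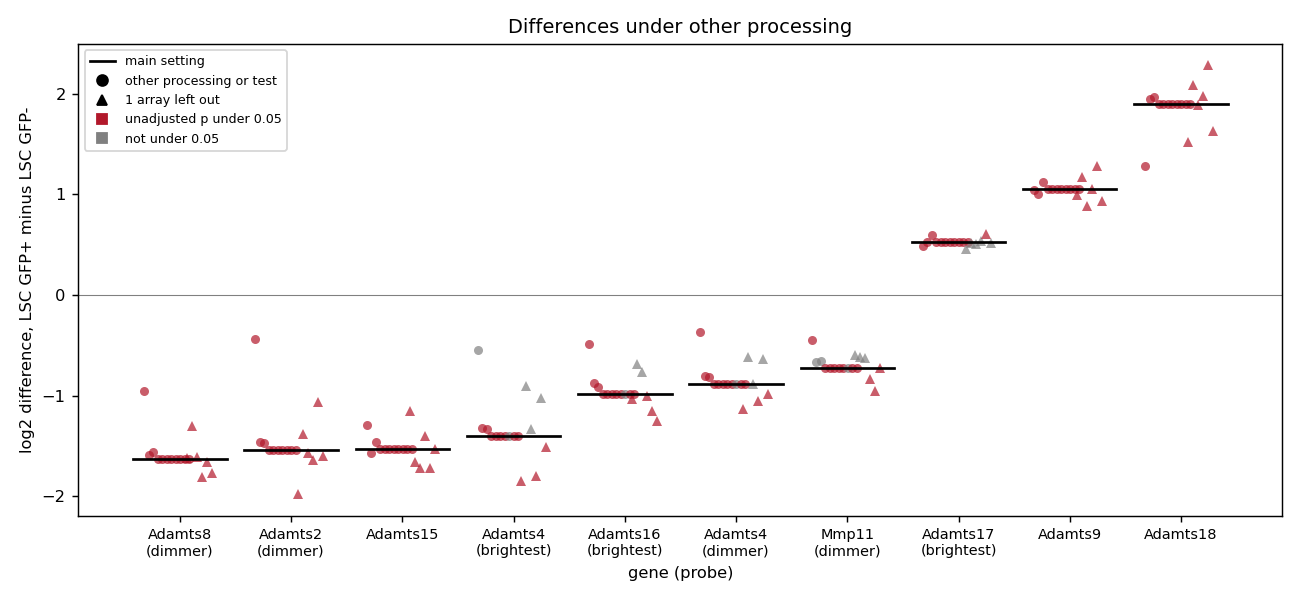
The black line is the log2 difference (LSC GFP+ minus LSC GFP-) of each of the 10 called probes, circles are the same difference under other processing or another test, and triangles that with 1 of the 6 arrays left out. Red symbols have an unadjusted p under 0.05. All symbols of Adamts9, Adamts15, Adamts18, Adamts2 and Adamts8 are red, and every probe stays on its side of 0.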

How the data were processed

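Total RNA of LSC GFP+ and LSC GFP- cells was amplified with a whole-transcriptome kit, labelled with Cy3 and hybridised to 6 one-colour mouse arrays. The deposited intensity values are the processed signals of Feature Extraction, which the file headers give as version 11.0.1.1 and the submitters' processing notes as 10.7.3.1. Per the file headers, the authors' signals are linear, with background subtracted and a spatial trend removed, without normalization between arrays. The deposited value table gives the same intensities with 3 significant digits and was used as an alternative.

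Signals were taken to log2, each array was scaled to its 75th percentile, outlier spots (123 to 154 per array) were left out and spots of a probe averaged. No spot was saturated. Of all probes, 36656 to 42128 per array were well above background, and the number of arrays limits the precision. The test took the 37005 probes that were above background on every array of either population and used limma 3.58.1 (lmFit, then eBayes, two-sided; R 4.3.3) with Benjamini-Hochberg adjustment over all tested probes. A gene was represented by its tested probe of highest mean signal. Symbols are those of the array design, and 59 of the 62 member probes were matched by accession to RefSeq (GRCm38.p6), all to the same symbol. Scripts were tested on simulated data.

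The members and the gene lists were chosen with earlier results of these data known. Values on every sample are given for the Timp genes, for Mmp2, Mmp7 and Mmp14, and for each member with a called probe or with a non-overlapping change of at least 1.5-fold, and listed regulators are named where called, apart from 1 that is not reported here. Mmp9 had no array with a probe value above background. Other genes named were chosen after their values were seen.

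Samples with the same replicate number in the labels deviated together. Their correlations across probes were 0.433, 0.277 and 0.668 for replicates 1, 2 and 3. Between samples of different number the correlations ran from -0.547 to 0.223. The numbers were therefore taken as pairs in the replicate block, an alternative to the unblocked test reported here. Alternatives were normexp with an offset of 50, quantile and median scaling, the value table, 3 other filters, outlier spots kept, the methods' t-test with equal variances, an intensity trend, the replicate block, the mean over probes and each array left out in turn.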

Additional observations from a re-analysis of the deposited data

How the results depend on the processing

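The counts of called members, 10 probes and 6 genes, ranged from 7 to 13 probes and from 5 to 9 genes over the alternatives that kept all arrays, and from 5 to 11 probes and 3 to 7 genes with 1 array left out. They fell to 5 probes and 3 genes without LSC GFP+ replicate 2, and to 6 probes without LSC GFP- replicate 1. With the replicate block, 5480 of all probes were called instead of 2925, and among the members Mmp7, Mmp11 and Mmp14 were called in addition to the genes called without it. It changed no other call of a gene. With scaling by the median, the split of all called probes changed from 1250 higher and 1675 lower to 1471 and 1299. The median difference over the 29 genes lay between 0.0080 and 0.13 with all arrays and between -0.0046 and 0.088 with 1 array left out. The second Timp2 probe turned to 0.0016 with median scaling. As the mean of their probes, Adamts8 turned to -0.79, and Adamts8, Adamts2 and Mmp11 were called as lower. Normexp shrank the downstream Adamts2 and Adamts8 probes, both Adamts4 probes, Adamts16 and the downstream Mmp11 probe by over 1.5 times. With 1 array left out, the Timp2 probes ranged from -0.27 to 0.072 and from -0.30 to 0.18, the upstream Adamts8 probe from -0.015 to 0.095, the second Adamts16 probe from -0.73 to 0.072, Mmp2 from -0.15 to 0.45 and Timp4 from -0.014 to 0.068. The cause was not tested. All 6 arrays lay on 1 slide, so slide as a block was not run. Both replicate 3 arrays lay in row 2 of the slide and the other arrays in row 1. Row and replicate 3 therefore cannot be told apart. The precision is limited by 3 samples per population and, for several Adamts probes, by signals near background.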
